A study of Mus musculus with 8 samples.

Results

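The genes described here make up a short list of Sertoli cell transcripts led by Clu and Ctsl, measured in whole mouse testis before and after the loss of germ cells. The list named 8 genes, Clu, Ctsl, Trf, Cldn11, Rhox5, Inha, Defb36 and Aard, and the members were all deposited transcripts whose symbol matched one of them (the tail table writes symbols in lower case, as in clu and ctsl). Of the 8 genes, 7 were found, with 8 transcripts of the 2783 in the count table and 9170 of 621202 reads. Ctsl had 2 transcripts and every other gene had 1, while Rhox5 had none among the transcripts analysed here.

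Poly(A) RNA was read as native molecules by Nanopore direct RNA sequencing, so that each read is 1 RNA molecule and carries an estimate of its own poly(A) tail in nucleotides (nt). The 4 groups came from adult males that were Tent5c wt/wt (wt) or Tent5c dcat/dcat (dcat), and that received vehicle or a single injection of busulfan at 20 mg/kg, with testes taken 4 weeks later. The dcat allele makes a catalytically dead TENT5C, a poly(A) polymerase, in every cell of the mouse, so it is not restricted to Sertoli cells. All mice were on a C57BL/6 background, and each group held 2 mice, 1 library each, from a single cohort. The reads counted here are those of the transcripts kept in the deposited table, which is part of each library. They ran from 29574 (dcat vehicle replicate 1) to 129074 (dcat vehicle replicate 2), and levels are given as CPM, read counts scaled to these totals, where 3 reads corresponded to between 23.2 and 101 CPM. Tent5c itself was read in all 8 libraries, with 18 to 115 reads; the allele removes the activity of the enzyme and not its RNA, so these reads do not check the genotype.

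Sertoli cells are the somatic cells of the seminiferous tubule that surround and feed the germ cells, seal the tubule with tight junctions, and secrete carrier proteins, proteases and hormones. They do not divide in the adult, whereas busulfan, an alkylating drug, kills dividing germ cells, so a testis that has lost germ cells holds a larger share of Sertoli cell RNA. Several of the listed genes are also used outside Sertoli cells: Clu and Ctsl are made in many tissues, Ctsl in macrophages as well, and Inha in Leydig cells. In RNA from whole testis, fewer cells of a type and less RNA per cell cannot be told apart.

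The sequences shown are the last 30 bases before the tail of the 6 transcripts that mark the long and the short end of the tail range, with the poly(A) signal hexamer AATAAA in capitals where it occurs. They were read 5′ to 3′ from the GRCm38 genome at the transcript ends of GENCODE, on the strand of the gene. Clu ends on the plus strand at chr14:65981518-65981547, and the 2 Ctsl transcripts end on the minus strand at chr13:64359337-64359366 (ENSMUST00000222517) and chr13:64363214-64363243 (ENSMUST00000021933). Inha ends on the plus strand at chr1:75510337-75510366, Defb36 at chr2:152612700-152612729 and Aard at chr15:52045693-52045722. All 6 stretches lie in the annotated 3′ UTR of the last exon.
Clu: aatccAATAAAagccgccttgcgatacgtg
Ctsl ENSMUST00000222517: atgcaaaataAATAAAtctaatgtttgtgt
Ctsl ENSMUST00000021933: gggctaagataaacatgtaatgttataccc
Inha: AATAAAaaaggaagtgtgtgtgcctttgta
Defb36: tcagtcAATAAAcgtgcttgcccaacctca
Aard: taaacttAATAAAaatagttgcagacctaa

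AATAAA was present in this window in 6 of the 8 listed transcripts, on the strand of the transcript, and in 55.6% of the 2738 deposited transcripts that the annotation holds. It was not in the window of the shorter Ctsl transcript or of Trf. The hexamer was present both in Clu, which had the longest mean tail of the list in 7 of 8 libraries, and in Defb36 and Aard, which had the shortest in the busulfan libraries. The 2 Ctsl transcripts share 6 exons and differ in their 3′ ends, which lie 3877 bases apart, with an annotated 3′ UTR of 4764 bases in ENSMUST00000222517 and 887 bases in ENSMUST00000021933. Reads that end in shared exons could have been given to either, so the Ctsl transcripts are also given as a sum.

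The first comparison asked how the listed genes stood in testes that had lost germ cells, with busulfan against vehicle in each genotype. Summed over the list, the wt libraries held 2344 and 2246 CPM with vehicle and 23981 and 23669 CPM with busulfan. The dcat libraries held 4396 and 2154 CPM with vehicle and 21632 and 15553 CPM with busulfan. No busulfan library overlapped a vehicle library in either genotype, while the dcat replicates lay farther apart than the wt replicates under both treatments.

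A transcript is in the deposited table if each of the 2 libraries of some group holds 10 reads or more of it, so a transcript that reached this only after busulfan had to be higher there. Of the 8 listed transcripts 6 reached it in a vehicle group: Clu, both Ctsl transcripts and Aard in all 4 groups, and Cldn11 and Defb36 in every group other than wt vehicle. All 6 had more reads after busulfan by edgeR's quasi-likelihood test at an adjusted p under 0.05, in wt and in dcat. Of the 1576 transcripts that reached the minimum in a vehicle group, 9.07% passed in this direction in wt and 8.44% in dcat, and of all 2783 transcripts 35.4% and 31.3%. The median log2 fold change of the 6 was 3.37 in wt and 2.62 in dcat, beside -2.34 and -1.36 over those 1576. Trf reached the minimum in the wt busulfan group alone and Inha in the 2 busulfan groups alone, so their changes are given as values without a test. Calls in both directions over all transcripts fell from 1746 to 712 in dcat without dcat vehicle replicate 2.

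**Figure D1:**
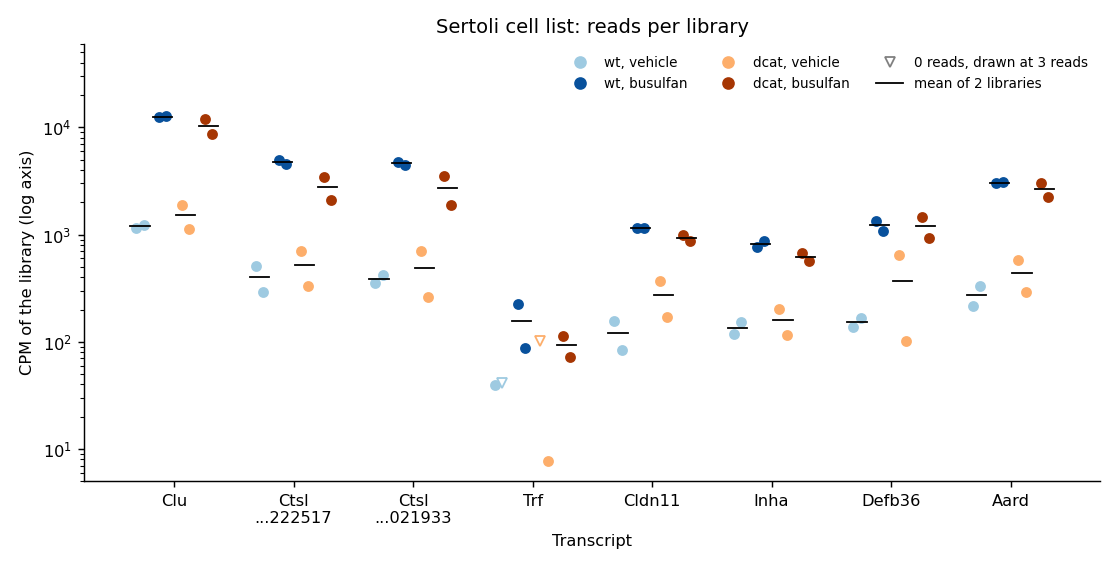
CPM (vertical, log axis) for the 8 listed transcripts (horizontal), 1 point per library, coloured by group, with a bar at the mean of the 2 libraries. Open triangles stand for libraries with 0 Trf reads, drawn at the level of 3 reads. For every transcript other than Trf, the 4 busulfan libraries lie above the 4 vehicle libraries as drawn. Trf held 0 to 39.4 CPM with vehicle and 72.4 to 227 CPM with busulfan, so its overlap comes from the triangles. Trf and Inha reached the minimum number of reads only after busulfan, so their separation is no test of a rise. How many of all transcripts separated in this way was not counted.

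Clu encodes clusterin, a secreted chaperone of the tubule fluid, and had 4227 reads over the 8 libraries. With vehicle the wt libraries held 1162 and 1220 CPM of Clu and the dcat libraries 1894 and 1131. With busulfan the wt libraries held 12475 and 12779 CPM and the dcat libraries 11922 and 8749. The log2 fold change after busulfan was 3.36 ± 0.34 (SE, 2 libraries against 2) in wt, with an edgeR adjusted p of 6.68e-08, and 2.83 ± 0.34 in dcat, with an edgeR adjusted p of 4.89e-06. In wt this is a 10.3-fold and in dcat a 7.13-fold higher level, and both groups of vehicle libraries lay far below both groups of busulfan libraries.

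Ctsl encodes cathepsin L, a lysosomal cysteine protease that Sertoli cells also secrete. Both transcripts together reached 867 and 707 CPM with vehicle in wt and 1420 and 597 CPM in dcat. After busulfan they reached 9750 and 9045 CPM in wt but 6978 and 3971 CPM in dcat. With reads summed per gene symbol, the log2 fold change was 3.58 ± 0.37 in wt (edgeR adjusted p = 8.53e-08) and 2.53 ± 0.37 in dcat (edgeR adjusted p = 2.28e-05). Per transcript, ENSMUST00000222517 had log2 fold changes of 3.55 in wt and 2.57 in dcat, and ENSMUST00000021933 had 3.51 and 2.68. The share of Ctsl reads given to ENSMUST00000222517 was 51.4% (95% Wilson interval 47.5 to 55.2) and 50.5% (47.4 to 53.5) in wt busulfan, and 49.7% (44.9 to 54.4) and 52.6% (47.6 to 57.5) in dcat busulfan. In the vehicle libraries, with 42 to 77 Ctsl reads each, it ran from 41.2% to 59.1%. The intervals cover counting error only, and since reads that end in shared exons could have gone to either transcript, these shares do not measure the use of each 3′ end.

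Aard, a gene of Sertoli cells whose role is less well known, rose by a log2 fold change of 3.39 ± 0.40 in wt and 2.76 ± 0.39 in dcat. In wt it went from 217 and 333 CPM with vehicle to 2998 and 3110 CPM with busulfan. In dcat the vehicle libraries held 575 and 294 CPM, and the busulfan libraries held 3009 and 2265 CPM. The edgeR adjusted p was 2.55e-07 in wt and 1.77e-05 in dcat.

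Cldn11 encodes claudin 11, a strand protein of the tight junctions that close the blood-testis barrier. It had 158 and 83.2 CPM in wt vehicle against 1151 and 1161 CPM in wt busulfan, a log2 fold change of 3.26 ± 0.47 (edgeR adjusted p = 2.94e-06). In dcat it had 372 and 170 CPM after vehicle against 992 and 879 after busulfan, a log2 fold change of 2.01 ± 0.44 (edgeR adjusted p = 0.00065). This was the smallest change of the list in dcat, and its dcat vehicle libraries both lay above its wt vehicle libraries.

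Inha encodes the alpha subunit of inhibin, the hormone by which Sertoli cells restrain the release of follicle-stimulating hormone. The wt libraries held 118 and 152 CPM with vehicle against 772 and 875 CPM with busulfan, and the dcat libraries 203 and 116 CPM against 667 and 569 CPM. Its log2 fold change was 2.54 ± 0.45 in wt and 2.13 ± 0.46 in dcat, from 6 to 15 reads in each vehicle library.

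Defb36 encodes a beta-defensin, a small cationic peptide. It stood at 138 and 166 CPM in wt vehicle against 1347 and 1092 CPM in wt busulfan, with a log2 fold change of 2.91 ± 0.54 (edgeR adjusted p = 5e-05). In dcat it stood at 642 and 101 CPM after vehicle against 1464 and 931 CPM after busulfan, with a log2 fold change of 2.13 ± 0.52 (edgeR adjusted p = 0.00164). The value of 642 came from 19 reads of the smallest library, dcat vehicle replicate 1. Without dcat vehicle replicate 2 the log2 fold change in dcat was 1.02 with an edgeR adjusted p of 0.0819.

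Trf encodes transferrin, which carries iron to the germ cells, and was the scarcest member with 42 reads in all. The wt libraries gave 2 and 0 reads with vehicle but 15 and 10 with busulfan, and the dcat libraries 0 and 1 with vehicle but 7 and 7 with busulfan. The ratio of summed reads per total, busulfan over vehicle, was 8.46 in wt (exact 95% interval 2.11 to 73.7) and 14.0 in dcat (2.14 to 594). The intervals cover counting error only and not the spread between mice. Trf is in the table through the wt busulfan group alone, so these ratios and intervals are no test of a rise.

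**Figure D2:**
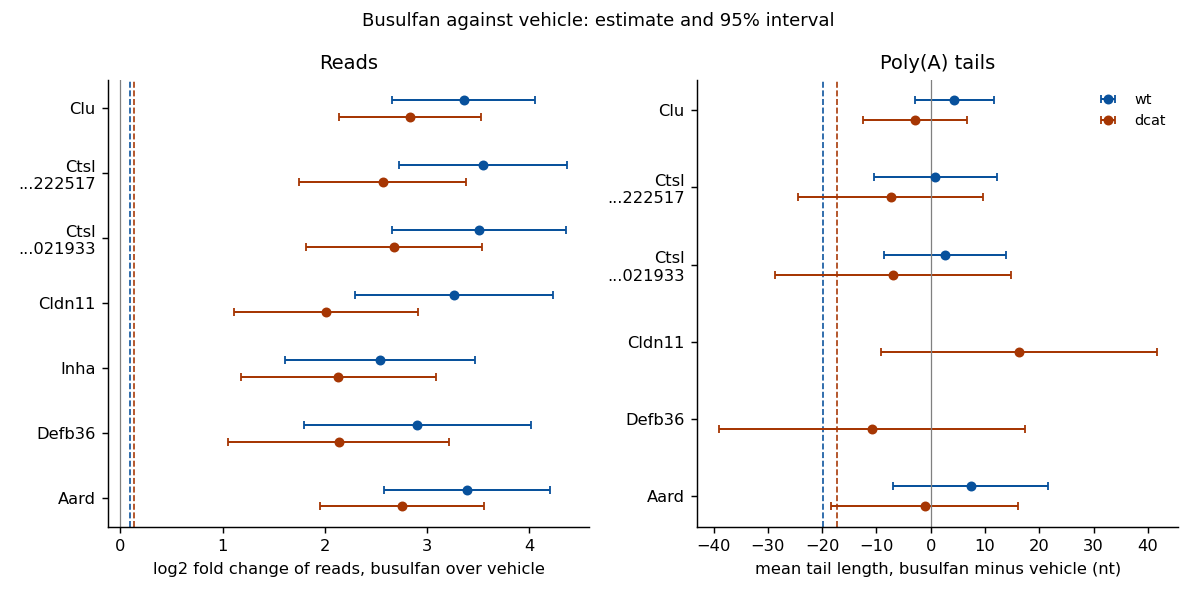
Left, log2 fold change of reads, busulfan over vehicle, for the listed transcripts other than Trf; right, difference in mean tail length (nt), busulfan minus vehicle, for those with enough reads. Points are estimates in wt (blue) and dcat (brown), bars are 95% intervals, and dashed lines mark the median over all transcripts tested. All read intervals lie above 0, whereas every tail interval spans 0. Inha reached the minimum number of reads only after busulfan, so its read interval is no test of a rise.

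Whether the rise differed between genotypes was tested directly as an interaction of genotype and busulfan. By edgeR, 0 of 8 listed transcripts passed, beside 0.323% (9) of all transcripts, or 123 with the replicate number as a block, which left the list at 0 of 8. That total ran from 3 to 257 when 1 library was left out, the highest without dcat busulfan replicate 1, and without dcat vehicle replicate 2 Defb36 passed (-2.13, edgeR adjusted p = 0.0333). The estimates were below 0 for all listed transcripts other than Trf, from -1.25 for Cldn11 to -0.41 for Inha, and the 95% interval for Clu ran from -1.45 to 0.41. At 2 mice a group these intervals leave a 2-fold smaller rise in dcat within range. The median over all transcripts was 0.28. Of the calls after busulfan over all transcripts, 48.0% were higher in wt and 49.9% in dcat. With RLE scaling in edgeR these shares were 45.8% and 43.5%, and with DESeq2, which changes the test as well, 38.7% and 35.7%.

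The wider set of Sertoli cell genes, collected by function from general knowledge, held 69 genes outside the list, of which 30 were measured. Of these, 22 reached the minimum of 10 reads only after busulfan, so that 8 can be counted. In wt 6 of the 8 rose and 2 fell, and in dcat 6 rose, 1 fell and 1 was not called, beside the 9.07% and 8.44% of such transcripts that rose. Among secreted carriers 4 of 4 rose in both genotypes, among them the iron-siderophore carrier Lcn2 (3.93 ± 0.42 in wt), the defensin Defb19 (2.31 ± 0.33) and the fatty acid carrier Fabp3 (2.83 ± 0.36). Of the proteases and their inhibitors 3 can be counted, and 2 rose in both genotypes, the cystatin Cst9 (2.66 ± 0.36 in wt) and the metalloproteinase inhibitor Timp2 (3.24 ± 0.44). The 2 genes of this set that fell in wt were named after their values were seen. They were Ldha (-3.01 ± 0.48), a lactate dehydrogenase subunit that other cells also use, and the cystatin Cst8 (-1.73 ± 0.52). Whether the reads of these 2 genes came from Sertoli cells was not tested.

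All 5 measured junction genes and both measured Sertoli transcription factors reached 10 reads only after busulfan. In wt the adhesion proteins F11r and Nectin2 had 4 and 1 and 3 and 3 reads with vehicle, against 29 and 38 and 16 and 38 with busulfan. Cldn3 had 7 and 12 reads against 7 and 30. The transcription factor Wt1 had 2 and 4 reads with vehicle in wt against 17 and 27 with busulfan, and Nr0b1 had 1 and 4 against 13 and 32. Sox9, Amh and Fshr, which define Sertoli cells elsewhere, were not among the transcripts analysed here.

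Ctsl belongs to a lysosomal set of which 12 of 18 other genes were measured, 10 of them reaching 10 reads only after busulfan. Of the other two, cathepsin B (Ctsb) rose in wt by a log2 fold change of 3.79 ± 0.52 and in dcat by 2.44 ± 0.49, whereas the membrane protein Lamp1 gave 0.71 ± 0.41 and 0.19 ± 0.42 and was not called. Cathepsin D (Ctsd) had 6 and 2 reads in wt vehicle against 48 and 87 in wt busulfan, and the activator protein Gm2a 6 and 8 against 71 and 124.

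Markers of other cells moved beside the list. Of 10 measured Leydig cell markers 4 reached 10 reads in a vehicle group, and 4 of 4 rose in both genotypes, so a rise after busulfan was not particular to Sertoli cell genes. Summed over the 10, Leydig markers held 5632 ± 386 CPM (SD, n = 2) in wt vehicle against 44815 ± 3128 in wt busulfan. The 3 measured of 9 macrophage markers, Lyz2, Cd74 and C1qc, held 111 ± 38.7 against 1014 ± 85.2 CPM in wt, and all 3 reached 10 reads only after busulfan. Of 3 measured peritubular markers the 1 that reached it with vehicle, Actg2, fell in both genotypes (-3.84 ± 0.65 in wt). The other 2, reaching it only after busulfan, went the other way in wt. Acta2 had 2 and 9 reads with vehicle against 31 and 58 with busulfan, and Myl9 3 and 12 against 70 and 111. Summed, the 3 held 606 ± 104 CPM in wt vehicle against 1525 ± 49.0 in wt busulfan. The 1 measured spermatogonial marker, Uchl1, held 54.4 ± 21.1 against 219 ± 76.3 CPM in wt. Late spermatid markers fell for 8 of 8 genes in wt, from 100401 ± 6828 to 8559 ± 1913 CPM, and for 6 of 8 in dcat, from 91243 ± 11306 to 26445 ± 11521 CPM. The part of these cells in the rise of Clu, Ctsl and Inha was not tested.

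The second comparison asked whether genotype mattered for these genes within one treatment. After busulfan, 0 of 8 listed transcripts differed between dcat and wt by edgeR, beside 5.82% of all transcripts, and after vehicle 0 of 8, beside 0% (65 transcripts at an unadjusted p under 0.05, and DESeq2 also called 0). The busulfan total of 162 ran from 7 without wt busulfan replicate 1 to 360 without dcat busulfan replicate 1. After busulfan the median log2 difference of the 8 listed transcripts was -0.31, against 0.20 over all transcripts. With each of the 7 genes taken once, by its leading transcript, it was -0.25. Both medians include Trf (-0.59), which reached the minimum number of reads in the wt busulfan group alone. Clu gave -0.24, with a 95% interval from -0.86 to 0.39, so a fall to 0.849 of the wt level could not be told from none.

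Ctsl had the lowest estimates after busulfan, -0.73 ± 0.34 for ENSMUST00000222517 (edgeR adjusted p = 0.222) and -0.73 ± 0.35 for ENSMUST00000021933 (edgeR adjusted p = 0.245). After busulfan ENSMUST00000222517 stood at 5011 and 4566 CPM in wt against 3464 and 2089 CPM in dcat. When the 4 busulfan libraries alone were fitted, both transcripts passed, at -0.88 (edgeR adjusted p = 0.00235) and -0.87 (edgeR adjusted p = 0.0029). ENSMUST00000222517 also passed without dcat vehicle replicate 2 (edgeR adjusted p = 0.0439) and ENSMUST00000021933 without dcat busulfan replicate 1 (edgeR adjusted p = 0.0419). With reads summed per gene symbol Ctsl gave -0.83 ± 0.32 (edgeR adjusted p = 0.129). The fit of 4 libraries also scaled them anew, with a median over all transcripts of 0.05 in place of 0.20, and the cause of the changed call was not tested.

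Other values moved with this comparison. The summed level of the other Sertoli genes was 34928 ± 1843 CPM (SD, n = 2) in wt busulfan and 25064 ± 4325 in dcat busulfan, and that of the lysosomal set 7178 ± 581 and 4724 ± 1094. Late spermatid markers stood at 8559 ± 1913 in wt busulfan and 26445 ± 11521 in dcat busulfan, and 34592 in dcat busulfan replicate 2, the library with the lower Clu and Ctsl levels of its group. Of the 30 other Sertoli genes 1 differed between genotypes after busulfan, Lcn2 at -2.14 ± 0.37 (edgeR adjusted p = 0.00137), and of the 12 lysosomal genes none did. Lcn2 supplied 441 of 2221 and 1054 of 4182 reads of the other Sertoli genes in wt busulfan. In dcat busulfan it supplied 144 of 1729 and 118 of 2128. The median log2 difference of the 30 was -0.17. Of the 8 late spermatid markers 4 were higher in dcat busulfan by edgeR. Leydig markers summed to 44815 ± 3128 CPM in wt busulfan and 24087 ± 3016 in dcat busulfan, with 1 of 10 called, Insl3 (-1.18 ± 0.32, edgeR adjusted p = 0.0299). Insl3 supplied 2082 of 2814 and 4197 of 5428 Leydig marker reads in wt busulfan, and 930 of 1612 and 1329 of 2123 in dcat busulfan. The median log2 difference of the 10 markers was -0.14. Both measured erythroid markers, Hbb-bs and Hba-a2, together held 847 ± 108 CPM in wt busulfan and 10.3 ± 14.6 in dcat busulfan. They reached the minimum of 10 reads in the wt busulfan group alone, so their difference is no test. Macrophage markers stood at 1014 ± 85.2 and 791 ± 124 CPM with 0 of 3 called. The part of these cells in the Ctsl difference was not tested.

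**Figure D3:**
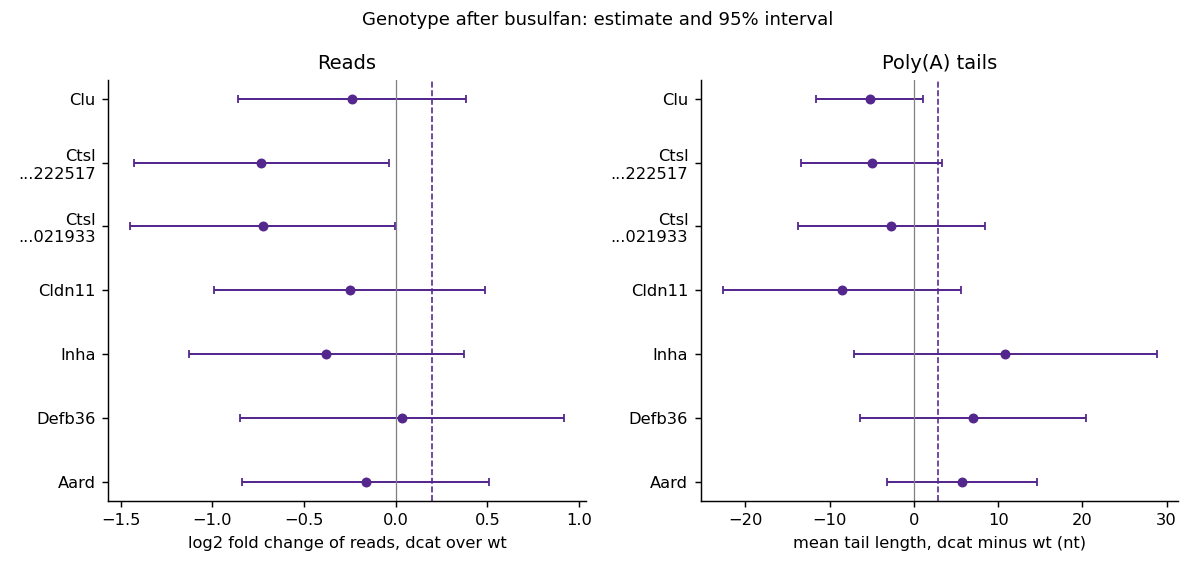
Left, log2 fold change of reads, dcat over wt, after busulfan; right, difference in mean tail length (nt), dcat minus wt, after busulfan. Points are estimates, bars 95% intervals and dashed lines the median over all transcripts tested. The Ctsl read intervals end just below 0 without passing the adjusted threshold, and every tail interval spans 0.

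The poly(A) tails set the members apart from each other. Clu carried the longest. With vehicle its mean tail measured 188 and 191 nt in the wt libraries and 189 and 194 nt in the dcat libraries, and with busulfan 191 and 197 nt in wt against 194 and 184 nt in dcat. Transcripts that reached 10 reads in the pair of libraries were ranked within each group. From the longest, Clu was number 16 of 1475 in wt vehicle and number 13 of 1604 once wt mice had received busulfan. Among the dcat groups it was number 5 of 821 with vehicle and number 12 of 1469 with busulfan. The middle of this ranking lay at 148 nt in wt vehicle and 120 nt after busulfan, so Clu stood well above it under both treatments.

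Single Clu reads spread widely around the mean. Across the 8 libraries, 10% of Clu reads had tails shorter than 109 to 137 nt and 10% had tails longer than 246 to 269 nt. Short tails, from 30 to 120 nt, made up 7.94% ± 2.50 (SD, n = 2) of Clu reads in wt busulfan and 10.9% ± 0.928 in dcat busulfan, and tails over 210 nt made up 36.6% ± 3.60 and 34.4% ± 6.79. For Ctsl, short tails made up 21.2% ± 3.24 and 24.1% ± 3.10 of reads, and for Aard 50.9% ± 0.529 and 48.9% ± 2.59.

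Both Ctsl transcripts had means close to each other, between 155 and 180 nt over the 8 libraries. With vehicle ENSMUST00000222517 measured 162 and 173 nt in wt and 172 and 169 nt in dcat, and with busulfan 165 and 172 nt in wt against 167 and 160.1 nt in dcat. Clu was longer than Ctsl, taken over both transcripts, in 8 of 8 libraries, by 13.3 to 28.1 nt, and Ctsl was longer than Aard in 8 of 8, by 28.5 to 52.1 nt. The 2 Ctsl transcripts did not fall in one order: the transcript with the longer 3′ UTR had the longer mean in some libraries and the shorter in others.

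Inha had long tails in the busulfan libraries, 170.2 and 180 nt in wt and 196 and 176 nt in dcat, where it was number 47 of 1604 and number 15 of 1469. In dcat busulfan replicate 1 it passed Clu, and in the other 7 libraries Clu had the longer mean. Its vehicle means of 115, 153, 144 and 154 nt rested on 6 to 15 reads each. After busulfan Cldn11 lay lower, at 155 and 144 nt in wt against 138 and 143 nt in dcat. Trf stood at 141 and 134 nt in wt busulfan from 15 and 10 reads.

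Defb36 and Aard carried the shortest tails of the list after busulfan. Defb36 then had means of 112 and 113 nt in wt against 125 and 114 nt in dcat. For Aard the wt libraries gave 109 and 128 nt with vehicle then 127 and 125 nt with busulfan, and the dcat libraries 132 and 134 nt then 134 and 129 nt. The 4 dcat libraries thus all lay above the 4 wt libraries for Aard, though within neither treatment did the difference pass the test. The nearest means were 128 nt in wt vehicle replicate 2 and 129 nt in dcat busulfan replicate 2, and that of wt vehicle replicate 1 rested on 11 reads. How many of all transcripts separated by genotype in this way was not counted, so the separation is no result about Aard. The order of Cldn11, Aard and Defb36 changed between libraries, Cldn11 being longer than Aard in 6 of 8 and Aard longer than Defb36 in 6 of 8.

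**Figure D4:**
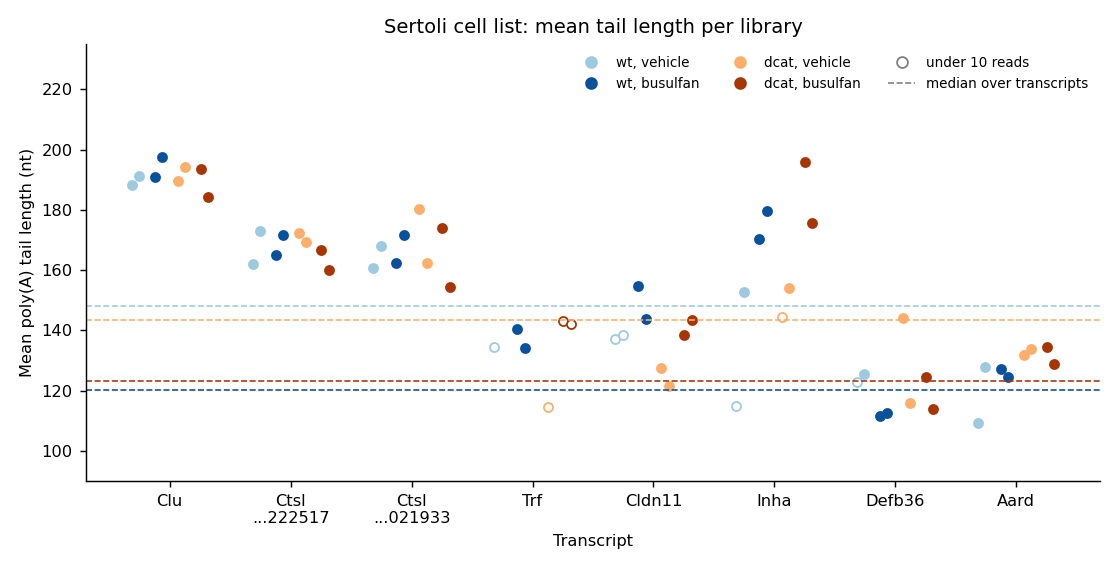
Mean poly(A) tail length (vertical, nt, the axis starts at 90) of each listed transcript in each library, coloured by group, with open points for means over fewer than 10 reads and dashed lines at the median over all transcripts of a group. Clu lies between 184 and 197 nt in all libraries, while the dashed medians fall after busulfan.

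No listed transcript passed the test of tail length after busulfan. In wt, limma called 0 of the 4 members with at least 10 reads in each library (Clu, both Ctsl transcripts and Aard), whereas it called 39.7% of all 527 transcripts tested. In dcat it called 0 of 6, whereas it called 19.5% of 441, or 136 transcripts with the replicate number as a block in place of 86. Mean Clu tails differed by 4.36 nt in wt (95% interval -2.96 to 11.7, limma adjusted p = 0.331) and by -2.97 nt in dcat (-12.5 to 6.60, limma adjusted p = 0.632). Over all transcripts tested the median difference was -19.9 nt (wt) and -17.2 nt (dcat). Ctsl ENSMUST00000222517 gave 0.83 nt (-10.6 to 12.2) in wt and -7.39 nt (-24.4 to 9.65) in dcat, and Aard 7.32 nt (-7.01 to 21.7) and -1.15 nt (-18.4 to 16.1). Without wt vehicle replicate 2, whose partner held 11 Aard reads, the Aard difference in wt was 16.6 nt (limma adjusted p = 0.0455), and without wt vehicle replicate 1 it was -1.94 nt. The largest estimate of the main test was that of Cldn11 in dcat, 16.2 nt (-9.23 to 41.6, limma adjusted p = 0.329), where 128 and 122 nt with vehicle lay below 138 and 143 nt with busulfan. The dcat means of Ctsl ENSMUST00000222517 were 172 and 169 nt with vehicle and 167 and 160.1 nt with busulfan. How many of all transcripts tested separated in this way was not counted, so the separation is no result about these members.

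The outcome depended on centring. When the median over the transcripts tested was taken off each library, Clu stood 27.6 nt higher after busulfan in wt (limma adjusted p = 0.000455) and 19.8 nt higher in dcat (limma adjusted p = 0.0419). All 4 members tested passed in wt, with Ctsl ENSMUST00000222517 at 24.0 nt (limma adjusted p = 0.00589) and Aard at 30.5 nt (limma adjusted p = 0.00738), and 2 of 6 passed in dcat, Clu and Cldn11, beside 88 of all 527 transcripts in wt and 58 of 441 in dcat. This scale was chosen after the data were seen. With the median of all reads of a library taken off instead, all 4 passed in wt and all 6 in dcat, and Clu stood 53.7 nt higher in wt (limma adjusted p = 3.62e-07). That scale shifts every transcript alike, and 348 of 527 transcripts were called in wt and 234 of 441 in dcat, 95.1% and 99.1% of them upward. Of the 6 genes of the wider Sertoli set tested in wt, 5 were not called either. The median of the 6 was 1.71 nt. The exception was Cst8 at -50.4 nt (limma adjusted p = 0.00552), which had also lost reads and was not shown to come from Sertoli cells.

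Between genotypes the tails of the list did not pass any test. After busulfan limma called 0 of 7 members, beside 1.35% of 1188 transcripts (16, or 27 with the replicate number as a block), and after vehicle 0 of 4, beside 0.139% of 720 (1, or 0 with the block). The interaction gave 0 of 4, beside 0.885% of 339. For Clu the difference after busulfan, dcat minus wt, was -5.25 nt (95% interval -11.6 to 1.09, limma adjusted p = 0.739). After vehicle it was 2.08 nt (-13.2 to 17.4, limma adjusted p = 0.989).

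The other members had wider intervals after busulfan. Ctsl ENSMUST00000222517 gave -5.02 nt (-13.4 to 3.34) and ENSMUST00000021933 -2.69 nt (-13.8 to 8.38). Cldn11 gave -8.54 nt (-22.7 to 5.63), Inha 10.9 nt (-7.09 to 28.8), Defb36 7.04 nt (-6.36 to 20.4) and Aard 5.69 nt (-3.19 to 14.6), so 3 estimates were above 0 and 4 below. The smallest limma adjusted p of the 7 was that of Clu. Of the 21 other Sertoli genes tested 0 passed, with a median of 1.36 nt beside 2.85 nt over all transcripts.

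**Figure D5:**
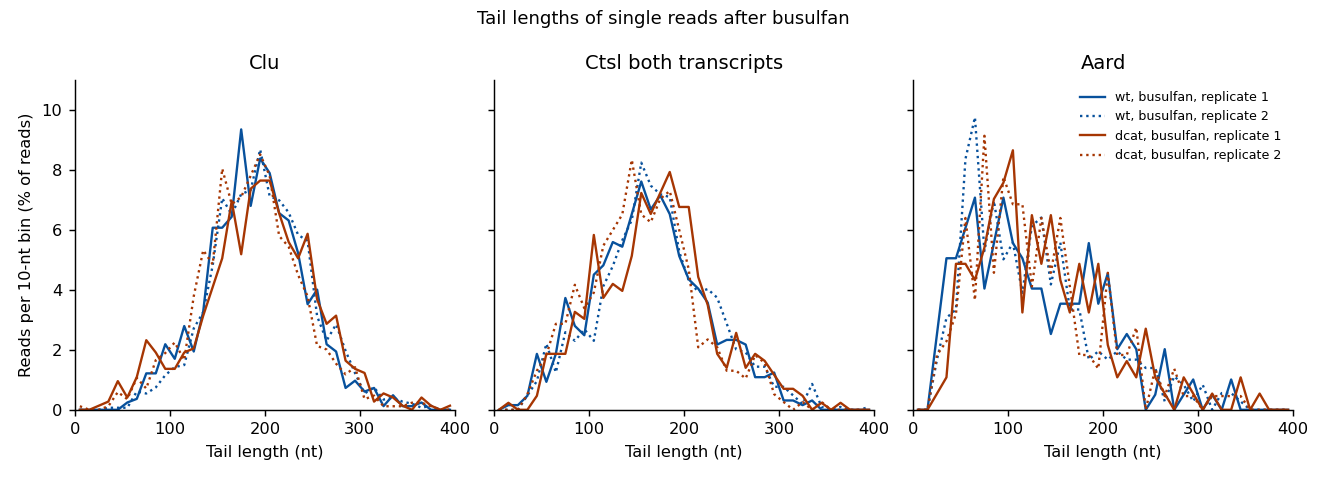
Share of reads (vertical, % per 10-nt bin) by tail length (horizontal, nt) for Clu, Ctsl and Aard in the 4 busulfan libraries, wt in blue and dcat in brown, replicate 1 solid and replicate 2 dotted; the axis stops before the few longest tails. The wt and dcat curves cross repeatedly, Clu and Ctsl have a single broad peak, and Aard holds more reads at shorter tails.

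Among the 883 transcripts of other genes with a mean of at least 20 reads per library, those whose levels followed Clu most closely were Vapa, Serinc3, Defb19, Tuba1a and mt-Co1, with Pearson r between 0.994 and 0.997 over the 8 libraries. For Ctsl they were Hspb1, Ndfip1, Gm14226, Lgmn and Akr1b8, with r between 0.990 and 0.993. Within the list, r with Clu was 0.994 for Aard and Inha, 0.981 and 0.984 for the Ctsl transcripts, 0.962 for Cldn11 and 0.931 for Defb36. The libraries fall into vehicle and busulfan sets and share their scaling, so these values mainly measure that division and are given as a description. Among the transcripts named as closest, Defb19 is another defensin of Sertoli cells and Lgmn is a lysosomal protease. The others, among them the mitochondrial transcript mt-Co1, were on neither the Sertoli nor the lysosomal list.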

How the data were processed

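Whole-testis poly(A) RNA from 8 mice was analysed, as 4 groups of 2. Per the labels and the study's methods, the authors basecalled Nanopore direct RNA reads, aligned them with Minimap2 to GENCODE transcripts (GRCm38, mm10), demultiplexed them, estimated tails with Nanopolish and filtered transcripts, each of which has 10 or more reads in the 2 libraries of 1 group or another. The deposited count table holds raw read counts per transcript, and the deposited tail table holds 1 tail length per read, in nt. The authors' DESeq2 tables hold fold changes and p-values between genotypes and were not used.

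Read counts were tested with edgeR 4.0.16 (TMM scaling, quasi-likelihood, 8 libraries as 4 groups) over all 2783 transcripts, and mean tails per transcript and library with limma 3.58.1 (at least 10 reads in each library compared, moderated by log2 mean reads), both with Benjamini-Hochberg adjustment at 0.05 in R 4.3.3. Intervals of a difference are 95% and follow from the fitted standard error. CPM are read counts scaled to the library total. DESeq2 1.42.0, RLE scaling, filters, medians, log2 tails, centring, single libraries left out, the study's library totals and a replicate block were alternatives. The tests were checked on simulated data. Symbols came from the deposited tail table, and coordinates and transcript ends from GENCODE vM21 on GRCm38, which held 2738 of the 2783 transcripts; the authors used an earlier GENCODE release on the same build.

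The members and gene lists were chosen with earlier results of these data known. Every transcript of a member gene is reported, each gene being led by its transcript with the most reads; of each other list, counts and at most the 3 genes with the most reads are named, besides exceptions named after their values were seen; for pattern, the 5 transcripts with the highest Pearson r of log2 CPM. The study's methods state that replicates 1 and 2 were 2 multiplexed libraries, each holding 1 mouse of every group, so the replicate number pairs the samples. Elsewhere here a library means the reads of 1 mouse. Deviations of same-numbered samples from their group means correlated between -0.15 and 0.34. Mice are separate animals, so the spread in the tests is that between mice of a group. It is not taken from the 2 mice of a group alone. The edgeR fit shares it over the 4 groups, and both tests borrow from other transcripts. Counts in the filtered table, which is part of each library, ran from 29574 to 129074 reads per library, which sets the precision of low transcripts such as Trf.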

Additional observations from a re-analysis of the deposited data

How the results depend on the processing

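Of 933 values of single members under another setting, 859 kept their direction and their side of the threshold. Both Clu and Ctsl ENSMUST00000222517 kept their rise in reads after busulfan in both genotypes under every setting run. With 2 mice a group and at most 146 vehicle reads for Clu, differences smaller than the intervals given were not detectable. RLE scaling moved the median log2 difference over all transcripts from 0.14 to -0.08 in dcat after busulfan and from 0.20 to 0.06 between genotypes after busulfan. With the read totals that the study gives per library as library sizes, chosen after seeing the data, no call on a member changed. The cause of a changed call was not tested unless the setting itself removes samples or transcripts.

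Tails after busulfan depended on centring. With the median of all reads of a library taken off, differences in wt were 53.7 nt for Clu and 50.1 nt for Ctsl ENSMUST00000222517 (348 transcripts called, against 209), and in dcat 43.1 nt for Clu, 38.7 and 39.2 nt for Ctsl ENSMUST00000222517 and ENSMUST00000021933, 35.3 nt for Defb36 and 45.0 nt for Aard (234 called, against 86). With the median over the transcripts tested taken off, chosen after seeing the data, they were 27.6 and 24.0 nt in wt for Clu and Ctsl ENSMUST00000222517 (88 called), and in dcat 19.8 nt for Clu, 15.4 and 15.8 nt for the Ctsl transcripts, 11.97 nt for Defb36 and 21.6 nt for Aard, of which Clu passed, as did Cldn11. The per-library median fell from between 138 and 152 nt with vehicle to between 94.3 and 103 nt with busulfan. The mix of reads changed as well: mitochondrial reads made up 4.38% to 6.08% of a library with vehicle and 14.0% to 16.2% with busulfan. The part of this change in the fall of the median was not tested. By median tail, Ctsl ENSMUST00000222517 gave -3.66 nt in wt and Cldn11 4.88 nt between genotypes after busulfan.

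The genotype difference of Defb36 reads after busulfan, 0.03 in the main test, was -0.11 with RLE scaling, -0.13 with filterByExpr, -0.10 with DESeq2, -0.13 from the 4 libraries alone, -0.082 with reads summed per symbol and -0.016 with the replicate block. That of Ctsl ENSMUST00000222517 was -0.88 from the 4 libraries alone. Inha after vehicle was -0.040 with RLE scaling.

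The replicate block changed no call on a member. It moved calls over all transcripts to 136 for tails in dcat after busulfan, 27 for tails between genotypes after busulfan (against 16), 0 after vehicle (against 1) and 123 for the interaction in reads (against 9). DESeq2 called 1095 transcripts in dcat after busulfan (against 1746), 77 between genotypes after busulfan (against 162) and 19 for the interaction, where RLE scaling called 68 and filterByExpr 36. A minimum of 20 reads left 121 and 48 tail calls after busulfan in wt and dcat and 9 between genotypes; 8 libraries fitted together left 139 in wt. Moderation without the trend gave 50 in dcat and, between genotypes after busulfan, 7; median tails gave 29 there and centring on transcripts 25. Tails between genotypes after vehicle had 0 calls by median, on the log2 scale and without the trend, and reads had 1 from the 4 libraries alone. The tail interaction had 1 call by median, 5 on the log2 scale, 9 and 8 with the 2 centrings, and 0 without the trend.

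With 1 library left out, where the lone library of a group is assumed to vary like the other groups, calls over all transcripts ran from 712 to 1795 (reads) and 52 to 95 (tails) in dcat after busulfan, 7 to 360 and 16 to 25 between genotypes after busulfan, 0 to 1 and 0 to 9 after vehicle, and 3 to 257 and 1 to 3 for the interaction. Log2 differences in reads between genotypes ran from -0.27 to 0.30 for Defb36, -0.34 to 0.044 for Aard and -1.08 to -0.44 for Ctsl ENSMUST00000222517 after busulfan. After vehicle they ran from -0.43 to 0.86 and -0.093 to 0.86 for Ctsl ENSMUST00000021933 and ENSMUST00000222517, -3.25 to 2.32 for Trf, -0.12 to 0.54 for Inha and -0.48 to 2.03 for Defb36. The interaction in reads ran from -3.07 to 2.53 for Trf and -2.13 to 0.38 for Defb36.

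Tail differences after busulfan ran in wt from -4.68 to 6.34 nt for Ctsl ENSMUST00000222517, -1.91 to 7.13 nt for ENSMUST00000021933 and -1.94 to 16.6 nt for Aard, and in dcat from -7.61 to 1.68 nt for Clu, -16.7 to 2.84 nt for Ctsl ENSMUST00000021933, -24.8 to 3.20 nt for Defb36 and -3.86 to 1.56 nt for Aard. Between genotypes Ctsl ENSMUST00000021933 ran from -12.5 to 7.09 nt after busulfan and -2.03 to 15.7 nt after vehicle, ENSMUST00000222517 from -2.31 to 8.71 nt and Clu from -0.31 to 4.48 nt after vehicle. The tail interaction ran from -17.7 to 0.79 nt for Aard and -19.3 to 0.23 nt for Ctsl ENSMUST00000021933.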
